A study of Mus musculus with 6 samples.

Results

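The genes described here sense, move and store iron in the liver. They are the 2 hepcidin genes Hamp and Hamp2, the transferrin receptors Tfrc and Tfr2, transferrin itself (Trf), the ferritin chains Fth1 and Ftl1, the iron exporter Slc40a1, and Id1 and Smad7, which respond to bone morphogenetic protein (BMP) signalling. These 10 genes were listed by name and found by their Ensembl identifiers among the 55357 genes of the count table, and all 10 had enough counts to be tested.

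Liver RNA of wild-type male C57BL6/J mice, 8 to 9 weeks old, was sequenced in 6 libraries, 3 from mice given vehicle (2.5% Tween-80) and 3 from mice given esculetin, a coumarin derivative dissolved in the same vehicle. Gavage was daily for 7 days in both groups. All mice ate a control diet with 10% of its energy as fat for 4 days and then a high-fat diet with 60% for 3 days, so both groups carry the diet change and no group without it was analysed. Each library pools the livers of a pair of mice. The labels give the dose of the same esculetin libraries as 180 mg/kg/d in one field and 90 mg/kg/d in another, and the group is called esculetin here without a dose.

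Hepcidin is a peptide hormone made mainly by hepatocytes that binds ferroportin, the product of Slc40a1, and causes it to be degraded, which lowers the release of iron into plasma. Its transcription follows iron through BMP6 and BMP2, the co-receptor hemojuvelin, HFE and transferrin receptor 2, and it follows inflammation through IL-6 and STAT3. Inside the cell, iron regulatory proteins bind hairpins called iron-responsive elements (IREs) when iron is low. They block translation of ferritin and ferroportin from elements in the 5′ UTR and protect the transferrin receptor mRNA through elements in the 3′ UTR.

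Both hepcidin genes lie on the minus strand of mouse chromosome 7 of GRCm39, Hamp (ENSMUSG00000050440) at chr7:30641766-30643990 and Hamp2 (ENSMUSG00000056978) at chr7:30621797-30624106.

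The IREs are printed because they divide the genes by how iron acts on their mRNA. An IRE was taken as a bulged C, 5 bases, the loop CAGTGN and 5 bases that pair with those before it (G-T pairs allowed), with at least 2 of 3 further pairs below the bulge. It was searched for in the UTRs of GENCODE canonical transcripts on GRCm39. Each line gives 28 bases on the transcript strand as DNA letters, with the loop in capitals.
Fth1, 5′ UTR: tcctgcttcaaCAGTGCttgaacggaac
Ftl1, 5′ UTR: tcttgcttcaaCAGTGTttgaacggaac
Slc40a1, 5′ UTR: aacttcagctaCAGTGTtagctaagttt
Tfrc, 3′ UTR: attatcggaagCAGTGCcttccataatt
Tfrc, 3′ UTR: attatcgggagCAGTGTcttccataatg
Tfrc, 3′ UTR: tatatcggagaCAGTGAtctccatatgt
Tfrc, 3′ UTR: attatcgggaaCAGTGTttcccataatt
The Fth1 element is at chr19:9960097-9960124 on the plus strand, the Ftl1 element at chr7:45109203-45109230 on the minus strand and the Slc40a1 element at chr1:45964625-45964652 on the minus strand. The 4 Tfrc elements, in the order printed, start at chr16:32450038-32450065 and end at chr16:32450529-32450556 on the plus strand. Such a match was found in the 5′ UTR of 12 of 20810 genes (0.0577%) and in the 3′ UTR of 41 of 20854 genes (0.197%). No match was found in the UTRs of the other 6 genes, which says only that these letters are not in those transcripts.

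The libraries held between 27957713 and 34920922 counts, and all 3 esculetin libraries had higher totals than all 3 vehicle libraries. Thinning every library to the smallest total left Hamp and Hamp2 called. Values are counts scaled to a common library size (CPM) after TMM normalization, on which 3 counts correspond to between 0.0865 and 0.109 CPM. Markers of hepatocytes summed to between 91500 and 96700 CPM in vehicle and between 86600 and 95500 CPM in esculetin libraries with none of the 7 at 0 in every library. To be called, a gene had to differ by more than 1.5-fold and to have a p-value, before adjustment, under 0.05 in edgeR's quasi-likelihood test over 14433 genes. Unless another tool, a left-out library or a ratio is named, an adjusted p is edgeR's Benjamini-Hochberg value over those genes. Changes in the number of cells of a type and in the RNA per cell cannot be told apart in whole liver.

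Both hepcidin genes rose with esculetin, and they were the only members called. Of the 10 genes, 2 were called higher and 0 lower, where 1.37% of all genes tested were called higher and 1.76% lower. At any fold, 4 of the 10 had an unadjusted p-value under 0.05 in the higher direction (all genes, 6.53%) and 0 in the lower (all genes, 5.32%). These 4 were Hamp, Hamp2 and both ferritin chains. With Benjamini-Hochberg adjustment 0 of the 10 passed 0.05 in edgeR, DESeq2 or limma-voom, where edgeR passed 0.0416% of all genes, and DESeq2 and limma-voom gave 5 and 4 of the 10 at an unadjusted p under 0.05, where they gave 10.7% and 11.8% of all genes in either direction. The median log2 fold change of the 10 genes was 0.27, beside -0.008 for all genes tested. The 10 genes were chosen with earlier results of these data known, so an excess over all genes only describes them.

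**Figure D1:**
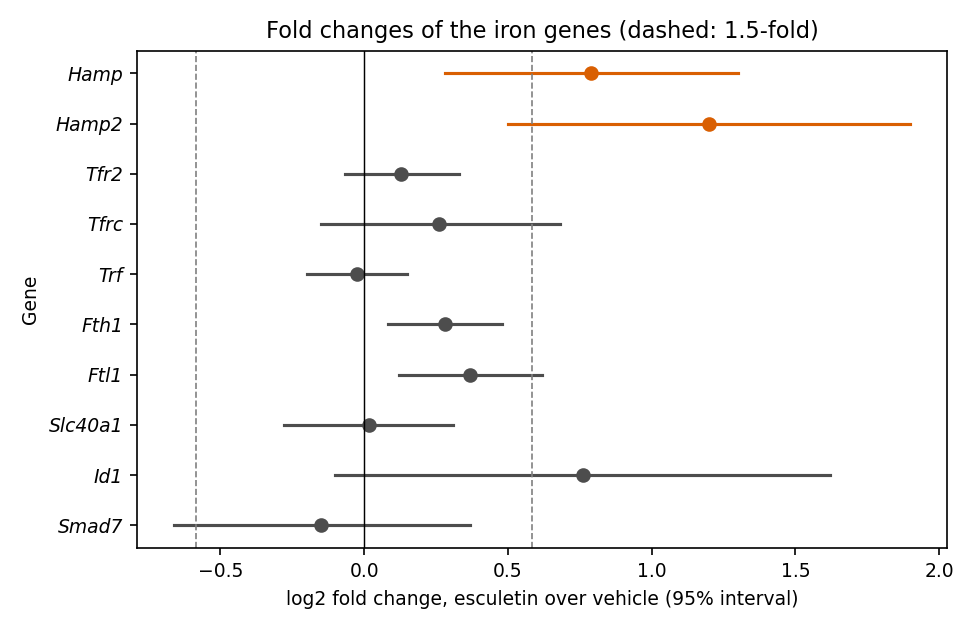
The log2 fold change of each of the 10 genes (esculetin over vehicle, x axis) with its 95% interval from edgeR's fit of 3 libraries per group, with called genes in orange and dashed lines at a 1.5-fold change. Hamp (0.79) and Hamp2 (1.2) lie past the dashed line, the intervals of Fth1 and Ftl1 lie above 0, and the other 6 intervals include 0.

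Hamp encodes the hepcidin that regulates ferroportin in mice. Its values were 289, 178 and 277 CPM in the vehicle libraries and 552, 298 and 437 CPM in the esculetin libraries. All 3 esculetin libraries were above all 3 vehicle libraries, but esculetin 2 (298 CPM) barely exceeded vehicle 1 (289 CPM). The mean went from 248 ± 61.0 to 429 ± 127 CPM (SD, n = 3 each), a log2 fold change of 0.79 (SE 0.23, 95% interval 0.28 to 1.30, 1.73-fold, adjusted p = 0.240 in edgeR). Without esculetin 1 the log2 fold change was 0.57 (adjusted p = 0.470), just under the fold threshold. That library also had the highest summed CPM of blood cell markers, at 178 for the 7 erythroid genes (114 and 120 in the other esculetin libraries, 127 to 155 in vehicle), 4.60 for the 4 neutrophil genes (1.67 and 2.30, and 1.40 to 2.66) and 5.01 for the 5 lymphocyte genes (1.70 and 2.06, and 1.93 to 2.30). Called higher were 1 of 5 erythroid genes tested (Hba-a2, 1.72-fold), 1 of 2 neutrophil genes (S100a9, 1.99-fold) and 1 of 4 lymphocyte genes (Cd79a, 2.17-fold), where all genes gave 1.37%. The erythroid gene Alas2 went the other way, below all vehicle libraries in all esculetin libraries (log2 fold change -0.24), and no marker of the 3 lists was at 0 in every library. Esculetin 1 also had the lowest sum of the 7 stellate cell markers, at 315 CPM. The other esculetin libraries had 418 and 425 CPM and the vehicle libraries 352 to 419 CPM. The part of these cell markers in the Hamp result was not tested.

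Hamp2 is a tandem duplicate of Hamp that is found in mice but not in humans and is not known to act on iron in the same way. Vehicle libraries held 20.4, 14.0 and 11.2 CPM and esculetin libraries 18.4, 40.6 and 45.8 CPM. Esculetin 2 and 3 were above every vehicle library, while esculetin 1 was below vehicle 1, so the groups overlapped. The mean was 15.2 ± 4.72 CPM in vehicle and 34.9 ± 14.6 CPM in esculetin (SD, n = 3 each), a log2 fold change of 1.2 (SE 0.31, 95% interval 0.50 to 1.90, 2.30-fold, edgeR adjusted p = 0.204). Leaving out esculetin 1 gave 1.51, the opposite shift to that of Hamp.

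The 2 hepcidin genes thus did not follow each other among the esculetin libraries. Hamp was highest in esculetin 1, where Hamp2 was lowest of the 3. Hamp2 made up 6.61%, 7.28% and 3.89% of the summed hepcidin counts in vehicle and 3.23%, 12.0% and 9.50% in esculetin, so that the esculetin libraries held both the lowest and the highest shares. The difference of 2.31 percentage points lay within the spread (two-sided exact permutation p = 0.5, adjusted over 3 ratios 0.75, smallest possible 0.1). The canonical mRNAs were 91.6% identical over 438 aligned positions, with a longest identical run of 87 bases, and how the counting treated reads that fit both genes is not given in the sources used here. Summed into 1 row, they gave a log2 fold change of 0.82 (SE 0.21, adjusted p = 0.202 in edgeR).

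**Figure D2:**
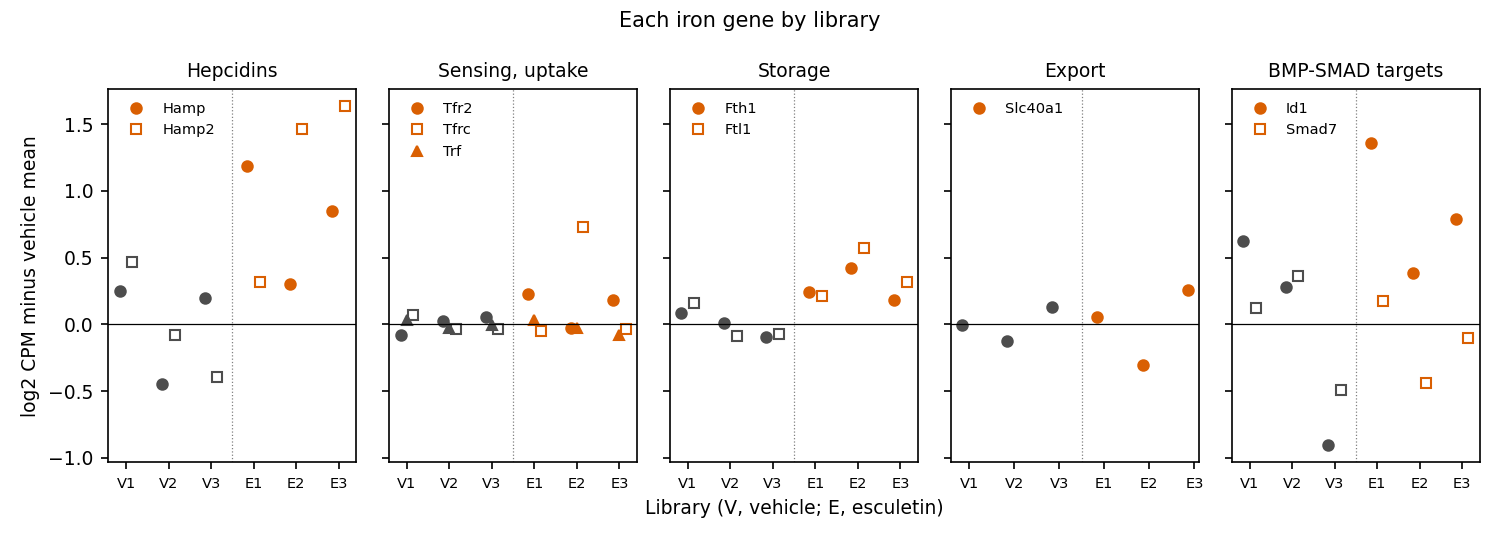
The log2 CPM of each gene minus its mean over the 3 vehicle libraries, for each library (V, vehicle in grey; E, esculetin in orange) and grouped by role. Hamp is highest in E1 and Hamp2 in E3, Tfrc is high in E2 alone, and both ferritin chains are above all vehicle libraries in all 3 esculetin libraries.

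Ferritin, the shell in which the liver keeps its iron, is built of heavy chains (Fth1), which oxidise iron, and light chains (Ftl1), which help to form the iron core. Both chains had higher mRNA in every esculetin library than in any vehicle library, by less than the fold threshold. In all, 3 of the 10 genes (Hamp, Fth1 and Ftl1) had every esculetin library above every vehicle library, as had 9.2% of all genes tested, and 0 had every one below, as had 8.24%.

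Fth1 measured 812, 775 and 717 CPM in vehicle and 907, 1030 and 871 CPM in esculetin libraries. The lowest esculetin value stood clear of the highest vehicle value. The log2 fold change was 0.28 (SE 0.089, 95% interval 0.083 to 0.48, 1.22-fold, edgeR adjusted p = 0.265), from 768 ± 47.8 to 935 ± 80.8 CPM (SD, n = 3 each). Ftl1 measured 285, 239 and 242 CPM in vehicle and 294, 378 and 317 CPM in esculetin libraries. Here esculetin 1 lay just above vehicle 1, and esculetin 2 was highest for both chains. The Ftl1 log2 fold change was 0.37 (SE 0.11, 95% interval 0.12 to 0.62, 1.29-fold, edgeR adjusted p = 0.252), from 255 ± 25.6 to 330 ± 43.5 CPM (SD, n = 3 each). Without esculetin 2 the values were 0.21 for Fth1 and 0.26 for Ftl1, both still under 0.05 before adjustment.

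Ferritin genes have processed copies in the genome that could take their reads. The row named Ftl1-ps1 held 158 to 254 counts per library against 6635 to 13120 for Ftl1, and the other 5 annotated copies held 0 to 9. Adding each gene's copies left the log2 fold changes at 0.28 and 0.37. The Ftl1 to Fth1 ratio of counts was 0.350, 0.309 and 0.337 in vehicle and 0.324, 0.369 and 0.364 in esculetin libraries. These ranges overlapped, and the ratio did not differ beyond its spread (two-sided exact permutation p = 0.4, adjusted 0.75).

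Transferrin carries iron in plasma and is secreted by hepatocytes. Trf held 13400, 12900 and 13100 CPM in vehicle and 13400, 12900 and 12400 CPM in esculetin libraries, nearly the same in all 6. Its log2 fold change was -0.024 (95% interval -0.20 to 0.15, edgeR adjusted p = 0.938), so that a change as large as 1.5-fold in either direction lies outside the interval.

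Tfr2 encodes the receptor with which hepatocytes sense transferrin-bound iron. It measured 261, 280 and 286 CPM in vehicle and 323, 270 and 312 CPM in esculetin libraries. Esculetin 2 lay inside the vehicle range and the other esculetin libraries lay above it. The log2 fold change was 0.13 (95% interval -0.068 to 0.33, edgeR adjusted p = 0.609).

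Tfrc encodes the receptor through which cells take up transferrin, and it carries the 4 printed 3′ UTR matches. It measured 56.2, 52.3 and 52.2 CPM in vehicle and 51.7, 89.0 and 52.3 CPM in esculetin libraries. Esculetin 2 stood apart from the other 5 libraries, which lay within 51.7 to 56.2 CPM. The log2 fold change of 0.26 (95% interval -0.15 to 0.68, edgeR adjusted p = 0.618) became -0.042 without esculetin 2. The same library had the highest Fth1 and Ftl1. The Tfr2 to Tfrc ratio of counts was 4.65, 5.36 and 5.47 in vehicle and 6.24, 3.03 and 5.97 in esculetin libraries (two-sided exact permutation p = 1).

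Slc40a1 encodes ferroportin, the only known iron exporter, which in the liver is found in Kupffer cells and hepatocytes. It measured 160, 146 and 175 CPM in vehicle and 166, 129 and 191 CPM in esculetin libraries. The esculetin libraries spanned the whole vehicle range, and the log2 fold change was 0.017 (95% interval -0.28 to 0.31, edgeR adjusted p = 0.975). The 8 Kupffer cell markers summed to 308 to 411 CPM in vehicle and 316 to 324 CPM in esculetin libraries, with none at 0 in every library. Of these markers, 7 of 8 had a log2 fold change below 0 (7440 of all 14433 genes), and 3 of 8 (Timd4, Cd68 and Csf1r) had every esculetin library below every vehicle library (all genes, 8.24%), Cd68 with an unadjusted p under 0.05 (log2 fold change -0.37). Their part in the Slc40a1 value was not tested.

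Id1 and Smad7 are target genes of the BMP-SMAD pathway, in which Smad7 acts as a feedback inhibitor. Id1 was scarce, at 2.11, 1.66 and 0.729 CPM in vehicle (62, 54 and 20 counts) and 3.51, 1.79 and 2.36 CPM in esculetin libraries (113, 62 and 79 counts). Esculetin 2 was below vehicle 1, so the groups overlapped. The log2 fold change was 0.76 (95% interval -0.10 to 1.62, SE 0.39, edgeR adjusted p = 0.481), and it passed both thresholds in DESeq2 (0.76), without vehicle 1 (1.08) and without esculetin 2 (0.96). Leaving out vehicle 3 or esculetin 1 lowered it to 0.44 and 0.46, neither past the p threshold. Smad7 measured 7.35, 8.69 and 4.81 CPM in vehicle and 7.62, 4.99 and 6.30 CPM in esculetin libraries. All 3 esculetin values lay inside the vehicle range, with a log2 fold change of -0.15 (95% interval -0.66 to 0.37, edgeR adjusted p = 0.849). Whether Id1 and Smad7 differed in response from each other was not tested.

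**Figure D3:**
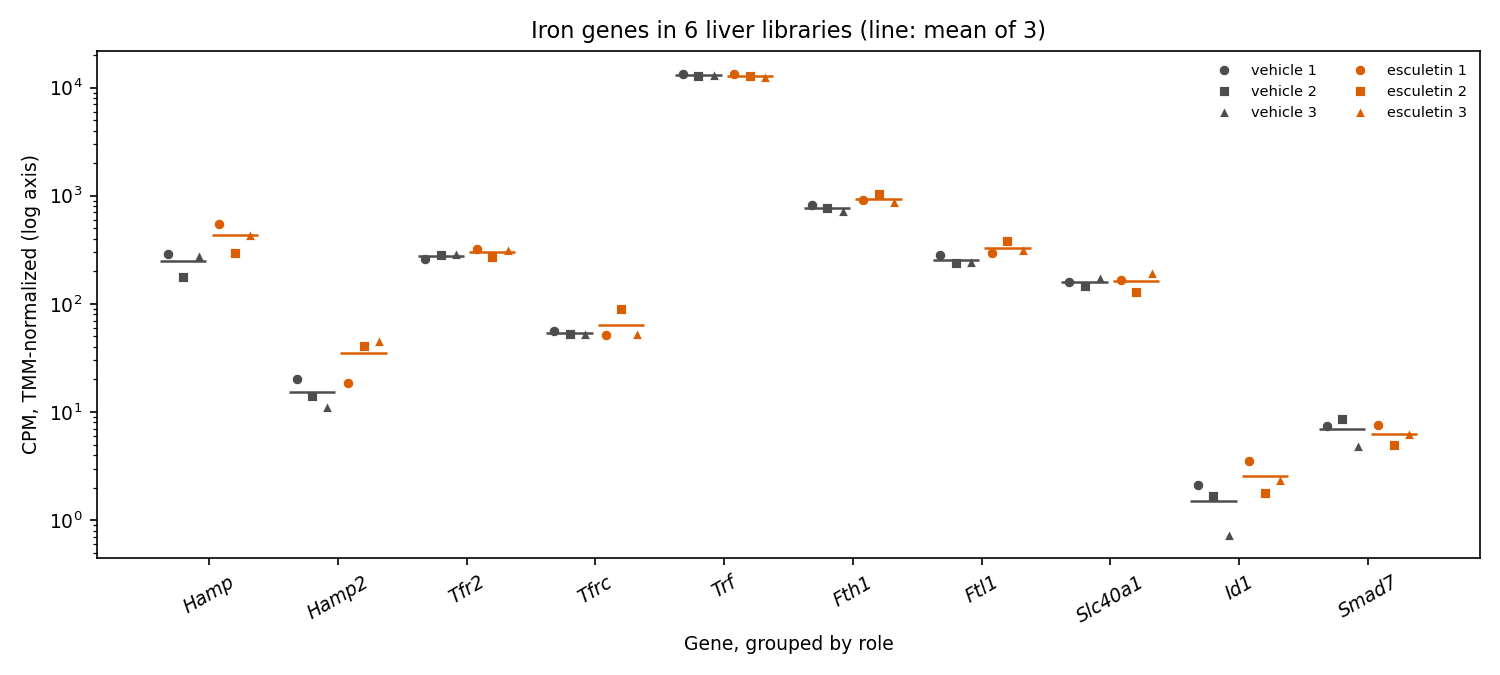
CPM of the 10 genes in each of the 6 libraries on a log axis, with vehicle in grey, esculetin in orange, a marker shape for each replicate number and a line at the mean of 3 libraries. Trf lies highest at about the same level in all libraries, and Id1 and Smad7 lie lowest.

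Levels between genes were compared as CPM per kilobase of canonical mRNA. In vehicle the order was Trf (5100), Fth1 (827), Hamp (363), Ftl1 (263), Tfr2 (74.8), Slc40a1 (46.3), Hamp2 (34.8), Tfrc (10.9), Smad7 (1.54) and Id1 (1.30), and the neighbours Hamp and Ftl1, Slc40a1 and Hamp2, and Smad7 and Id1 overlapped between libraries. In esculetin the means were 5010 for Trf, 1010 for Fth1, 627 for Hamp, 340 for Ftl1, 81.8 for Tfr2, 79.9 for Hamp2, 46.8 for Slc40a1, 13.1 for Tfrc, 2.21 for Id1 and 1.40 for Smad7. There Hamp no longer overlapped Ftl1, while Hamp2 overlapped both Tfr2 and Slc40a1. The canonical Hamp transcript is 684 bases long and that of Hamp2 437.

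The other genes of the pathway split evenly in direction. Of 120 other iron and heme genes in 8 lists, 112 could be tested, 1 was called higher and 2 lower, where all genes gave 1.37% and 1.76%. At any fold, 11 had an unadjusted p-value under 0.05 in the higher and 9 in the lower direction, where all genes gave 6.53% and 5.32%. With Benjamini-Hochberg adjustment 0 passed in edgeR and in limma-voom, and 2 in DESeq2 (Blvrb, adjusted p = 0.0126, and Cisd1, adjusted p = 0.00801). DESeq2 passed 193 of all 14433 genes. The median log2 fold change was 0.0019, with 56 genes above 0 and 56 below.

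Upstream of hepcidin, the BMP ligands and co-receptors gave 0 genes called higher and 1 lower of 17 tested (all genes, 1.37% and 1.76%). Bmp6, the main iron-regulated ligand, measured 4.49, 3.81 and 2.84 CPM in vehicle and 3.42, 4.41 and 3.28 CPM in esculetin libraries, with a log2 fold change of -0.0048 (95% interval -0.49 to 0.48). Bmp2, the other endothelial ligand, had 0.13 (-0.12 to 0.38), and the 8 sinusoidal endothelial markers summed to 236 to 284 CPM in vehicle and 254 to 288 CPM in esculetin libraries. The co-receptor Hjv had -0.15, Hfe 0.14 and Tmprss6, the protease that cleaves hemojuvelin, 0.091, and none of them passed a test. Bmp7 was the gene called lower, from 2.03 to 1.03 CPM (log2 fold change -0.96, SE 0.41, edgeR adjusted p = 0.398), with overlapping groups. Without vehicle 3 it was -0.59 and not called, nor was it called without vehicle 1, esculetin 1 or esculetin 3. Erfe, which carries the signal of red cell demand, had 2 counts in esculetin 2 and 0 in the other libraries. Among 12 SMADs and further BMP targets 0 were called (all genes, 1.37% higher and 1.76% lower). Of these 12, 8 had a log2 fold change below 0 (all genes, 7440 of 14433). Of the other Id genes, named after their values were seen, Id2 had -0.57, Id3 0.027 and Id4 -0.49, so Id2 and Id4 had the opposite sign to Id1. The smallest p of the list was that of Smurf1, a ubiquitin ligase for SMADs, with -0.31 (adjusted p = 0.262).

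On the inflammatory side 0 of 9 genes tested were called (all genes, 1.37% higher and 1.76% lower). Il6ra, which binds IL-6, was higher in all 3 esculetin libraries than in any vehicle library, at 68.8, 72.9 and 87.9 against 114, 97.8 and 90.7 CPM (log2 fold change 0.40, SE 0.11, edgeR adjusted p = 0.241), under the fold threshold. Like Hamp, it was highest in esculetin 1. Il6 itself did not pass the filter on low counts, at 0 counts in all vehicle libraries and 6, 0 and 4 in esculetin libraries, and it was called higher when that filter was left off. Chosen after their values were seen, the kinase Tyk2 (-0.30) and Socs3 (-0.55), a STAT3 target that dampens the pathway, were lower at an unadjusted p under 0.05. They were 2 of the 9 genes, and 1 was higher (all genes, 5.32% lower and 6.53% higher). Both Tyk2 and Socs3 had their lowest value in esculetin 1.

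The iron regulatory proteins themselves did not pass a test, with a log2 fold change of 0.081 for Aco1 (95% interval -0.10 to 0.26) and 0.0082 for Ireb2 (-0.28 to 0.30). Of the 9 genes in that list 0 were called (all genes, 1.37% higher and 1.76% lower). Every esculetin library lay above every vehicle library for 2 of them and below for 2 (all genes, 9.2% and 8.24%). Alas2, which makes heme in red cell precursors and also carried an IRE match in its 5′ UTR, was below all vehicle libraries in all esculetin libraries, at 83.1, 93.1 and 90.8 against 75.5, 75.4 and 75.8 CPM (-0.24, SE 0.073, edgeR adjusted p = 0.262), a direction opposite to that of the ferritin chains.

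Of 19 transport, reduction and chaperone genes tested, 1 was called higher and 1 lower, both at low counts (all genes, 1.37% and 1.76%). Cybrd1, a ferric reductase, rose from 0.698 to 1.33 CPM (log2 fold change 0.93, SE 0.37, edgeR adjusted p = 0.365), and Pcbp3, of the family of poly(C)-binding proteins that includes iron chaperones, fell from 0.716 to 0.348 CPM (-1.02, SE 0.41, adjusted p = 0.374). Both had at most 52 counts in a library. Over 14 alternative settings Cybrd1 kept its call in 10, Bmp7 in 8 and Pcbp3 in 5. With single libraries left out, Cybrd1 was called only without vehicle 3 or esculetin 1, and Pcbp3 only without vehicle 2. Cp, the plasma ferroxidase that works with ferroportin, had -0.053.

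In heme clearance and synthesis 0 of 13 and 0 of 12 genes were called (all genes, 1.37% higher and 1.76% lower). Hmox1, which breaks down heme, had a log2 fold change of 0.11 (95% interval -0.16 to 0.39), and Alas1, the first enzyme of heme synthesis in liver, 0.29 (-0.39 to 0.97) with values from 318 to 747 CPM. With a library left out, the Alas1 log2 fold change ranged from 0.07 to 0.79. Blvrb, a biliverdin reductase, had 0.41 (SE 0.084, edgeR adjusted p = 0.136), and Tspo, a mitochondrial outer membrane protein that binds porphyrins, 0.33 (adjusted p = 0.222), both above all vehicle libraries in all esculetin libraries. At an unadjusted p under 0.05, 2 genes were higher and 2 lower of 12 in the synthesis list, and 2 higher and 1 lower of 13 in the clearance list (all genes, 6.53% higher and 5.32% lower). Chosen after their values were seen, Abcb10 (-0.29), a mitochondrial transporter, and Uros (-0.30), an enzyme of heme synthesis, and in the clearance list the exporter Abcg2 (-0.19), had an unadjusted p under 0.05 and were below all vehicle libraries in all esculetin libraries. The iron-sulfur cluster list had 4 of 21 genes with an unadjusted p under 0.05, all higher (all genes, 6.53% higher), and 6 of 21 with every esculetin library above every vehicle library (all genes, 9.2%). The smallest p was that of Cisd1, an outer mitochondrial membrane protein with an iron-sulfur cluster, at 105, 101 and 103 against 141, 123 and 136 CPM (0.38, SE 0.077, edgeR adjusted p = 0.136). The other 3, chosen after their values were seen, were Glrx5 (0.28), Bola3 (0.24) and Cisd3 (0.26), and none of the 4 reached the fold threshold.

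**Figure D4:**
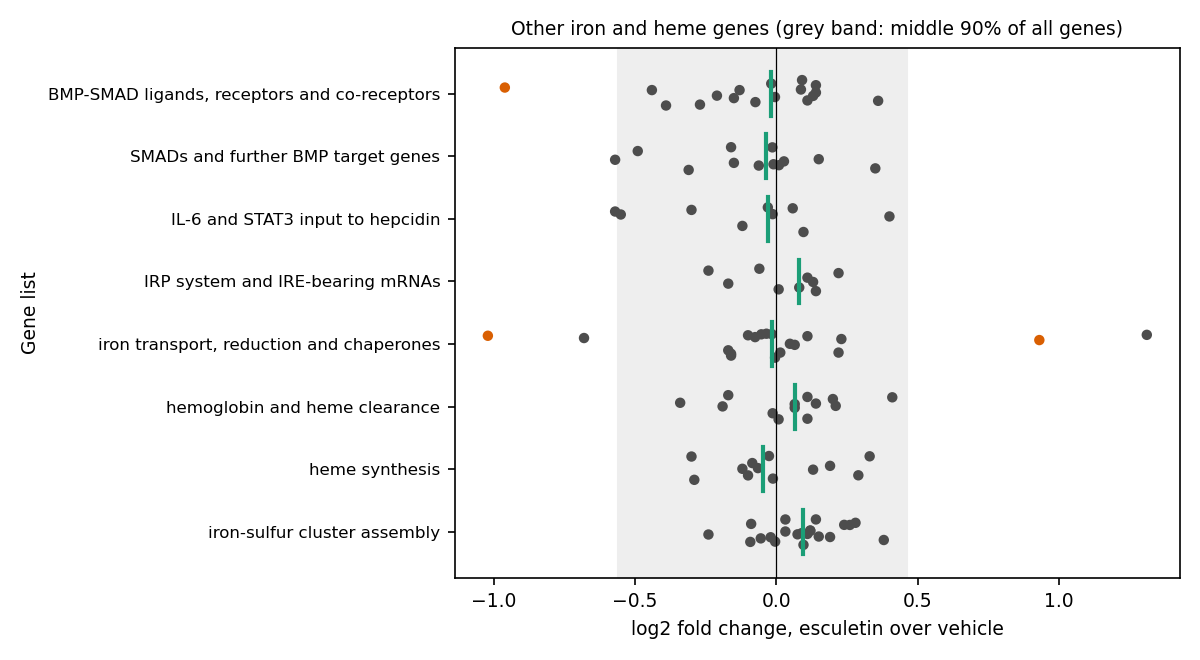
The log2 fold change (esculetin over vehicle, x axis) of the 112 other iron and heme genes tested, by list, with called genes in orange, a green bar at each list's median and a grey band from -0.56 to 0.46 that holds the middle 90% of all genes tested. List medians lie between -0.046 and 0.096.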

How the data were processed

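The authors aligned paired-end reads of an Illumina NEBNext Ultra library to GRCm39 with HISAT2 2.2.1, used featureCounts for counting per gene, and deposited the raw counts, which are not normalized (the submitters' processing notes also list mm10, with no role given). Strand setting, annotation release and treatment of multi-mapped reads are not given in the sources used here. A GENCODE annotation of GRCm39 gave symbols for 54749 of 55357 identifiers. Libraries were matched to groups by their titles and column names.

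Genes were kept with filterByExpr, counts were normalized with TMM (factors 0.979 to 1.02), and esculetin was set against vehicle in edgeR 4.0.16 (R 4.3.3) by its quasi-likelihood test, with p-values adjusted by Benjamini-Hochberg over 14433 genes. The common biological coefficient of variation was 14.6%. Dividing a log2 fold change by the root of its F statistic gave its standard error. The thresholds (unadjusted p under 0.05, fold over 1.5) follow the study's methods. P-values measure the spread between these 6 libraries. Replicate pairs differed by at least 24.2 in chi-square per gene, so none was deposited as a copy. Ratios of counts were compared by two-sided exact permutation tests, 3 in all. With 3 libraries against 3 their smallest p is 0.1, so they cannot pass 0.05.

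Alternatives were other tools (DESeq2 1.42.0 and limma-voom of limma 3.58.1), other scalings (total counts, DESeq2 size factors), other filters (none, or 10 counts everywhere), thinning to the smallest total, blocking on the replicate number, leaving out single libraries, and other thresholds. The edgeR step was tested on simulated data. The 10 genes and the other lists were chosen with earlier results of these data known. Outside the 10, the genes named are the called gene, or else that of smallest p, in each list, and 10 known ligands, sensors and enzymes. Erfe, Il6, Lcn2, the cell markers, Tyk2, Socs3, Abcb10, Uros, Abcg2, Glrx5, Bola3, Cisd3, Id2, Id3 and Id4 were named after their values were seen, as were genes called under an alternative alone. Alignments used Biopython 1.88. Genes whose exons overlap those of the 10 held at most 6 counts per library where the table lists them. The promoter sequences of the hepcidin genes are not reported here.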

Additional observations from a re-analysis of the deposited data

How the results depend on the processing

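With Hamp and Hamp2 counted apart, Hamp2 stayed past both thresholds in all 14 alternatives and Hamp in 13 of 14. The exception was leaving out esculetin 1 (0.57), where Hamp2 was the only gene called. With a fold threshold of 1.2, 4 of the 10 genes were called, all higher (Hamp, Hamp2, Fth1 and Ftl1), as were 649 of all 14433 genes. Of the 10, 0 were called with an adjusted p under 0.05, and 1 to 3 with a library left out. The third gene called there, and with DESeq2 and without the filter, was Id1. Without the filter on low counts, 24638 genes were fitted, of which 477 had an adjusted p under 0.05, in place of 6 with it. Among them were 3 of the 10 (Hamp 4.77e-08, Hamp2 2.13e-10, Ftl1 0.00968). The log2 fold change of Hamp was 0.80 there with an SE of 0.11, beside 0.79 and 0.23 with the filter. In all, 776 genes were called in place of 452. In the other alternatives with all libraries and no block, the adjusted p of Hamp lay between 0.237 and 0.262, and it was 0.202 for the summed hepcidin counts.

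The replicate numbers showed no pairing of the libraries over all genes (correlations of deviations -0.0689, -0.0108 and 0.00274), which cannot exclude a pairing. As a replicate block they gave 3 of the 10 genes called, among them Id1 (0.80), an adjusted p of 0.0456 for Hamp (0.78), 399 genes called in all, and 1 other iron gene (Cybrd1) in place of 3.

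Of the other iron and heme genes, 13 passed with a fold threshold of 1.2, 0 with an adjusted p under 0.05 in edgeR (2 in DESeq2, Blvrb and Cisd1, and 5 with no filter, Blvrb, Cisd1, Id2, Il6ra and Lcn2), and 1 to 5 with a library left out. Called then were Socs3 without vehicle 1, Cybrd1 without esculetin 1, and Alas1, Cybrd1, Id2, Lcn2 and Smad9 without vehicle 3, and leaving out esculetin 3 gave 5. Over all genes, 1270 passed with a fold threshold of 1.2, and 411 to 588 with a library left out. An adjusted p under 0.05 was reached by 6 of 14433 genes in edgeR, 193 in DESeq2 and 477 of 24638 with no filter.

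Direction turned for 7 of the 29 genes followed through the alternatives (the 10 and those named by rule), none of them called. With a library left out, log2 fold changes ranged from -0.042 to 0.40 for Tfrc, -0.053 to 0.0058 for Trf, -0.11 to 0.16 for Slc40a1, -0.35 to 0.050 for Smad7, -0.16 to 0.15 for Bmp6, -0.17 to 0.11 for Ireb2 and -0.11 to 0.018 for Cp. Without a turn, they ranged from 0.44 to 1.08 for Id1 and -1.34 to -0.59 for Bmp7. Total counts gave -0.0025 for Slc40a1 and -0.014 for Ireb2. Bmp6 was 0.0031 with limma-voom, 0.0066 with no filter and 0.0069 with the block, and Ireb2 -0.0088 with limma-voom and -0.0091 with the block. The causes were not tested. With a library left out, the Hamp2 share differed by 0.439 to 4.81 percentage points, and the log2 ratio by 0.0328 to 0.143 for Ftl1 to Fth1 and by -0.275 to 0.246 for Tfr2 to Tfrc. The median of all genes was -0.03 with total counts. Thinned to the smallest total, Id1 had 0.81.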

Other observations

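Members did not share a highest library. Esculetin 1 held the highest value of 4 of the 10 genes (Hamp, Tfr2, Trf and Id1), esculetin 2 that of 3 (Tfrc, Fth1 and Ftl1), esculetin 3 that of 2 (Hamp2 and Slc40a1) and vehicle 2 that of 1 (Smad7). Lcn2, which encodes an iron-siderophore binding protein made in inflammation and was chosen after its values were seen, held 1.57, 3.41 and 8.57 CPM in vehicle and 20.3, 5.30 and 7.73 CPM in esculetin libraries (log2 fold change 1.31, SE 0.59, edgeR adjusted p = 0.429). It too was highest in esculetin 1, and the groups overlapped. In the same library Socs3 (2.18 CPM) and Tyk2 (11.6 CPM) had their lowest values. Lcn2 was called higher in limma-voom, with no filter on low counts, and without vehicle 3, esculetin 2 or esculetin 3.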
